A study of Mus musculus with 388 samples.

Results

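The nuclear-encoded respiratory chain genes described here are the 91 rows of the expression table, out of 25000, whose symbol starts with Nduf, Uqcr or Atp5, or with Cox4 to Cox8 followed by a letter. They comprise 7 core subunits, 30 accessory subunits and 8 assembly factors of complex I, 8 subunits of complex III, 11 common subunits and 7 tissue or stress isoforms of complex IV, 16 genes of ATP synthase and 4 further Nduf symbols. Ndufa4, a subunit of complex IV, is counted by its symbol among the accessory subunits of complex I. The 13 protein-coding genes of the mitochondrial genome are given beside the 91 genes. The cells came from the bone marrow of C57BL/6 mice of 2 months of age that carry KitMerCreMer, a tamoxifen-dependent Cre recombinase under the control of the Kit locus, and R26tdTomato, a reporter that turns red after recombination. Tamoxifen was given on embryonic days E12.5 and E14.5, so red fluorescence marks descendants of cells that expressed Kit at that time. All cells were sorted as lacking CD45, Ter119 and CD31 and bearing PDGFRα, and then as Tomato+ or Tomato- (388 cells in all). Both groups therefore share genotype, tamoxifen, age and gate, and Tomato- cells of these mice can include unlabelled descendants of Kit-expressing cells. Each sample is 1 cell, no label names an animal, and cells of 1 mouse cannot be told from cells of another.

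The respiratory chain sits in the inner mitochondrial membrane. Complexes I, III and IV pass electrons from NADH to oxygen and pump protons, and ATP synthase uses the proton gradient to make ATP. Most of their subunits are encoded in the nucleus and imported, while a few core subunits of complexes I, III and IV and of ATP synthase are encoded by mitochondrial DNA, so the 2 genomes contribute to the same assemblies. Marrow stromal cells are known for a metabolism that leans on glycolysis when they are undifferentiated and on respiration as they mature.

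The cell titles give 2 orders, order 1 and order 2, and within them 8 sets of cells. Order 1 holds the Tomato+ sets P1, P2 and P3 (94, 5 and 40 cells) and the Tomato- set N2 (60 cells). Order 2 holds the Tomato+ sets P1 and P2 (24 cells each) and the Tomato- sets N1 and N2 (71 and 70 cells). No source used here says what an order or a set stands for, so batch, animal and order cannot be told apart. The column names of the table give the set but not the order: columns named as RSEM results were taken as order 1, because the set P3 occurs only among them and the set N1 only among the others, and every comparison between orders rests on this. The orders may also have been quantified in different ways, and the part of this in their differences was not tested. With no animal named, each group counts as 1 sample: no test was made, no p-value is given, and differences are read by their size, by their direction in both orders and by their range over sets. After 2 cells with fewer than 1000 genes or 10000 counts were left out, 386 cells remained, with 18031 to 3833473 counts each.

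Markers of Lepr+ marrow stroma were high in every group, with 16 of 16 listed genes measured and a summed level of 45271 to 84907 counts per 1000000 counts (CPM) over the 4 group-by-order sums. Markers of blood and vessel cells were present too: at least 5 counts of Ptprc or Pecam1, the genes of CD45 and CD31, were found in 7 Tomato+ cells and 1 Tomato- cell of order 1, against 6 and 21 of order 2. The 12 myeloid markers summed to 48.1, 88.7, 81.8 and 15395 CPM, given for Tomato+ then Tomato- cells of order 1 and next for the same groups of order 2. The 7 pericyte and smooth muscle markers summed to 161.8, 1176, 37.8 and 64.1 CPM in the same groups, and the 9 endothelial markers to 235, 37.4, 253 and 26.5 CPM. The 9 osteoblast and chondrocyte markers summed to 12969, 21943, 7660 and 8329 CPM, most of it Ibsp. Lymphoid markers (7 of 8 with a count) summed to at most 134.9 CPM and the 8 erythroid markers to at most 152.1 CPM in any group. Their part in the differences below was not tested, except where values without the cells with Ptprc or Pecam1 counts are given.

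Of the 91 genes, 87 had a count in some cell and 4 were at 0 in all 386 cells. A level of at least 20 CPM on average over the 4 sums, with a count in at least 20% of cells, was reached by 77 of the 91, and the 14 below it were the tissue isoforms Cox6a2, Cox6b2, Cox7a1, Cox7b2, Cox8b and Cox8c, the assembly factors Ndufaf1, Ndufaf2, Ndufaf4, Ndufaf5, Ndufaf6 and Ndufaf7, and Ndufa11b and Ndufa4l2. A count in at least 50% of cells was found for 73 genes and in at least 90% for 10. The median of the 87 genes with a count was detected in 70.98% of cells, and in 62.6% when each cell was thinned to 150000 counts.

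Levels between genes were compared as CPM per kilobase of exon, averaged over the 4 sums, with all annotated exons of a gene counted in its length. Among complex I accessory subunits, which stabilise the enzyme around its catalytic core, Ndufa2 and Ndufa1 were highest, at 244 and 127.98 CPM per kilobase, and Ndufb5 was lowest, at 7.70. Among the core subunits, which carry the flavin, the iron-sulphur clusters and the quinone site, Ndufs7 stood at 47.8 CPM per kilobase and Ndufs1 at 8.06. The assembly factors, which help to build complex I and leave it, were low as a group, with a median of 3.55 CPM per kilobase, a highest value of 38.5 for Ndufaf8 and a lowest of 2.37 for Ndufaf6. Among complex III subunits, the small Uqcr10 and the ubiquinone-binding Uqcrb were highest, at 154.5 and 117.3 CPM per kilobase, and the core protein Uqcrc2 was lowest, at 28.6. The common complex IV subunits had the highest median of the groups of nuclear-encoded genes, 86.6 CPM per kilobase, with Cox8a at 218, Cox6a1 at 159.1 and Cox5a at 23.4. In ATP synthase the catalytic head subunits alpha (Atp5a1) and beta (Atp5b) led, at 130 and 127.6 CPM per kilobase, and Atp5j2 of the membrane part was lowest, at 13.3. The mitochondrially encoded genes had a median of 513 CPM per kilobase, with CYTB at 4536 and ATP6 at 3172.

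Several complex IV subunits exist as a general form and as forms typical of muscle, testis or low oxygen, and these cells used the general forms. Cox6a2, Cox8b (forms of heart and skeletal muscle), Cox7b2 and Cox8c were at 0 counts in 386 cells, which allows a share of cells with a count of up to 0.777%. Set against a floor of 3 counts over all kept cells, Cox6a1 was at least 10526-fold higher than Cox6a2 per kilobase, Cox7b at least 2598-fold higher than Cox7b2, and Cox8a at least 7090-fold higher than Cox8b and at least 9019-fold higher than Cox8c. Skeletal muscle markers were at or near 0 as well, with a sum of at most 3.4 CPM in any group. Cox6b1 was 30.4-fold higher per kilobase than Cox6b2, a form known from testis. Cox7a2 was 67.8-fold higher than the muscle form Cox7a1, of whose counts in Tomato+ cells of order 1 97.9% came from a single cell. Cox7a2 was 2.13-fold higher than Cox7a2l, which encodes a factor that joins complexes III and IV.

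Cox4i2, a form of subunit 4 known from lung and from low-oxygen conditions, was the exception, with counts in 32.6% of cells. Its summed level was 22.9 CPM in Tomato+ and 35.5 CPM in Tomato- cells of order 1, and 15.4 and 13.2 CPM in order 2. Over all cells Cox4i1 was 5.33-fold higher than Cox4i2 per kilobase. In Tomato- cells of order 1, 69.98% of the Cox4i2 counts came from 1 cell, so the higher value there rests on that cell. Ndufa4l2, which is related to the complex IV subunit Ndufa4 and was looked at after its values were seen, stood at 3.45, 30.3, 11.2 and 3.68 CPM in the 4 groups as listed above, with 89.4% of the 30.3 CPM from a single cell.

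Subunit c, the ring that turns in the membrane part of ATP synthase, is encoded by 3 genes whose mature proteins are identical: Atp5g1 (chromosome 11, 96068852 to 96075670, minus strand), Atp5g2 (chromosome 15, 102662864 to 102672352, minus strand) and Atp5g3 (chromosome 2, 73908447 to 73911326, minus strand), with GRCm38 coordinates. Their proportions differed between the orders in both Tomato groups. Of the CPM per kilobase of the 3 genes, Atp5g1 held 29.8% in Tomato+ and 41.6% in Tomato- cells of order 1 but 12.6% and 10.96% in order 2. Atp5g2 held 33.3% and 25.9% in order 1 and 48.1% and 52.8% in order 2. Atp5g3 changed least, with 36.9%, 32.5%, 39.3% and 36.2%. These shares depend on the exon length counted for each gene. Over all cells Atp5g1 had the most counts, 21483 against 14924 for Atp5g2 and 16646 for Atp5g3. Per kilobase it was the lowest, at 16.3 against 33.2 and 28.4 CPM. By set, the share of Atp5g1 was 28.9 to 91.4% in the 4 sets of order 1 and 8.2 to 18.3% in those of order 2, so the sets of the 2 orders did not overlap; the 91.4% belongs to the 5-cell set P2. Expected counts of Atp5g2 were not whole numbers in 52.5% of cells with a value, and those of Atp5g1 in 16.04%, against 0% for Atp5g3, and values that are not whole mark reads divided between features, so the levels of Atp5g1 and Atp5g2 are uncertain.

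**Figure D1:**
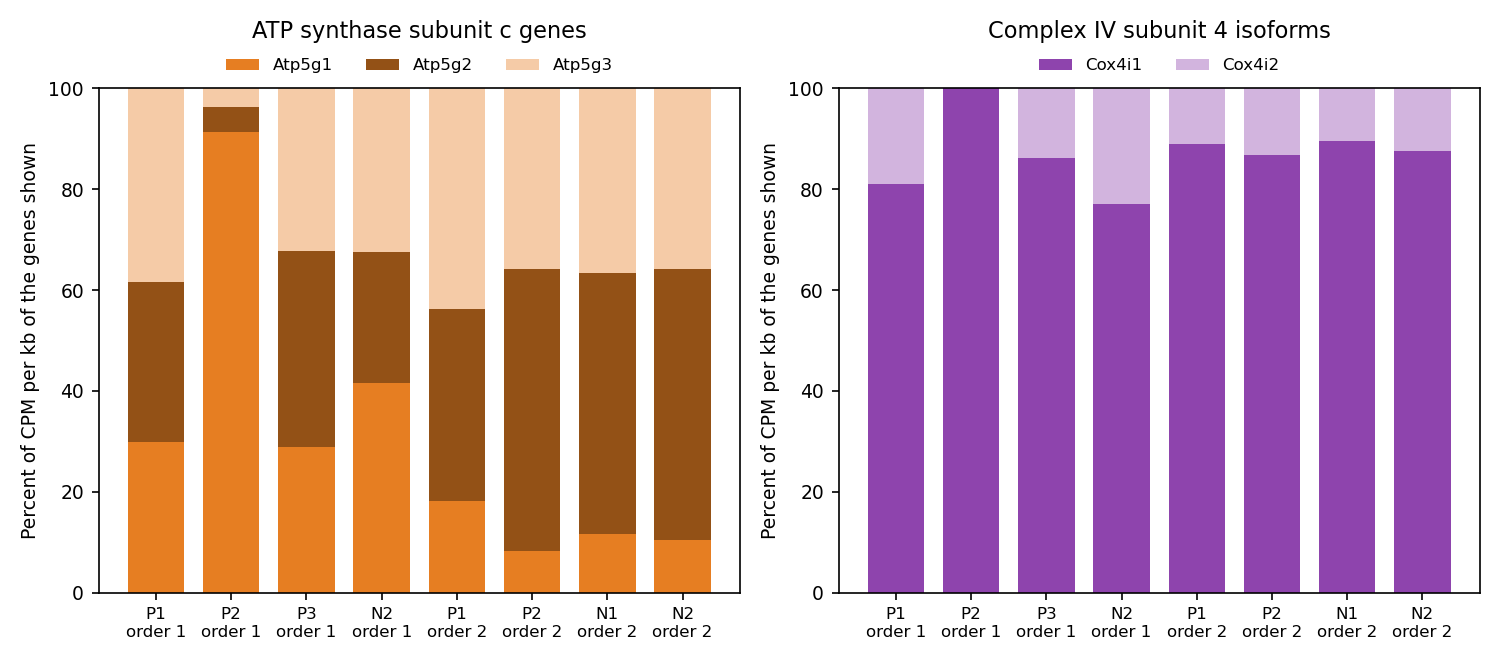
Stacked bars give the percent of CPM per kilobase held by each gene in the summed cells of each set, for the 3 subunit c genes (left) and for Cox4i1 and Cox4i2 (right). Atp5g1 takes 28.9% or more in the sets of order 1 and at most 18.3% in those of order 2, and Cox4i1 takes more than Cox4i2 in every set.

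The promoters of these 3 genes are shown because the genes encode the same protein and split by order, and those of Cox8a and Cox8b because they are the high and the silent form of 1 subunit. Each window runs 5′ to 3′ on the gene's strand from 250 bases before to 50 after the annotated start, in RefSeq on GRCm38.p6, and capitals mark matches to 1 of the 4 motifs named in the next paragraph.
Atp5g1, chr11:96075582-96075881, minus strand, no match: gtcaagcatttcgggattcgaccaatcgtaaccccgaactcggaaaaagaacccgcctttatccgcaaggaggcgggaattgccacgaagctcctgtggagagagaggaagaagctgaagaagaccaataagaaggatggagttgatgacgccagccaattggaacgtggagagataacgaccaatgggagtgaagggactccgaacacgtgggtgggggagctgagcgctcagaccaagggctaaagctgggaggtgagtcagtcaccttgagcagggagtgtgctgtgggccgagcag
Atp5g2, chr15:102670998-102671297, minus strand, an NRF1 match: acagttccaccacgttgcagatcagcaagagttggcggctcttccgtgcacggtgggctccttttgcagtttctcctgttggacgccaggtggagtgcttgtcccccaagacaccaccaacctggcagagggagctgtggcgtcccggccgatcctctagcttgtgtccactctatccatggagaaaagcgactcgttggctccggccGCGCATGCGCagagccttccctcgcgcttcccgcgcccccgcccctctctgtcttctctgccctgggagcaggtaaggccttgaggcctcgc
Atp5g3, chr2:73911277-73911576, minus strand, an ERRa and an NRF1 match: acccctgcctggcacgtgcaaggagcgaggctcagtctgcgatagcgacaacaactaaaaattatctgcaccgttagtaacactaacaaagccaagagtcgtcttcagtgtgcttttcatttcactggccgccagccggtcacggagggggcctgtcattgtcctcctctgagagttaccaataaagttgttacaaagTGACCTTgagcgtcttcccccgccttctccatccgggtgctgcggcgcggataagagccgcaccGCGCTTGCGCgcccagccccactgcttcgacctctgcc
Cox8a, chr19:7217567-7217866, minus strand, ETS matches: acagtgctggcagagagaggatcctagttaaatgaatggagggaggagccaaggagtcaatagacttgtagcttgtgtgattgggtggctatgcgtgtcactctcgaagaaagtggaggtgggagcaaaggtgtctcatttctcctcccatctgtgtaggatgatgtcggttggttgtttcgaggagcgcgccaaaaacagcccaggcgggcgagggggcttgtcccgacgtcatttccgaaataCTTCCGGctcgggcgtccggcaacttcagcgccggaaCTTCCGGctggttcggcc
Cox8b, chr7:140900397-140900696, minus strand, no match: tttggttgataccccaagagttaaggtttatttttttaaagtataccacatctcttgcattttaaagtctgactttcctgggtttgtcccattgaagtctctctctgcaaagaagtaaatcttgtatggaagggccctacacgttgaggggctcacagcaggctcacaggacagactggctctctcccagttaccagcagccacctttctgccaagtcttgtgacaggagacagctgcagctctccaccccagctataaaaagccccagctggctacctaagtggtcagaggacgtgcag

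RefSeq windows were found for 72 of the 91 genes, 77 windows in all, and 4 motifs of factors known to act on respiratory genes were searched on both strands. The NRF1 motif, GCGCA and GCGC with 1 base of any kind between them, was in 23.4% of the 77 windows and in 6.38% of the 21262 RefSeq windows of all protein-coding genes. The ETS motif CCGGAAG, bound by GABPA, was in 20.8% against 11.6%. The YY1 motif ATGGCGG was in 16.9% against 5.24%, and the ERRa motif AAGGTCA in 9.09% against 4.08%. Among the 61 matches in the 77 windows, 0 pairs of different motifs shared bases. The median window of these genes held 19 CpG dinucleotides against 13 in all windows. Within the groups, NRF1 matches were in 37.5% of 16 ATP synthase windows, 26.7% of 30 accessory complex I windows, 28.6% of 7 assembly factor windows, 20% of 5 complex III windows, 11.1% of 9 windows of common complex IV subunits, 0 of 5 core complex I windows and 0 of 4 windows of the tissue isoforms. A match describes letters in a window and shows neither a bound site nor a cause of any level.

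Per cell, the 91 genes together took a median of 0.568 to 0.965% of counts in the 8 sets. The 5-cell set P2 and the set P3 of order 1 were highest, at 0.965% and 0.882%, followed by N2 of order 1 at 0.757% and P1 of order 1 at 0.612%. The 4 sets of order 2 lay close together, at 0.601% and 0.581% in the Tomato+ sets P1 and P2 and 0.568% and 0.602% in the Tomato- sets N1 and N2. Single cells spanned 0.0141 to 2.01% in P3 and 0.0820 to 4.15% in N2 of order 1, but 0.268 to 0.888% in N1 of order 2. Cells of P1 of order 1 spanned 0.219 to 2.88%. Those of N2 of order 2 spanned 0.300 to 1.81% and those of P2 of order 1 0.132 to 1.38%. The ranges of all 8 sets overlapped.

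The mitochondrially encoded genes differed more between sets. Their median share per cell was 1.32%, 3.70% and 1.80% in the Tomato+ sets P1, P2 and P3 of order 1, 2.14% in N2 of order 1, and 0.642 to 0.787% in the 4 sets of order 2, so medians of the 2 orders did not overlap. Against the nuclear-encoded genes, mitochondrially encoded counts were 2.07 to 5.99 times as many in the sets of order 1 and 1.12 to 1.22 times as many in those of order 2. Within sets of at least 24 cells, Spearman's rho over cells between the nuclear-encoded and the mitochondrially encoded share was 0.033 to 0.390, and both shares have the cell's total count as denominator. In N2 of order 1 the mitochondrially encoded share was higher in cells with fewer counts (rho of -0.667 over 60 cells), and the highest cell reached 48.9%.

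**Figure D2:**
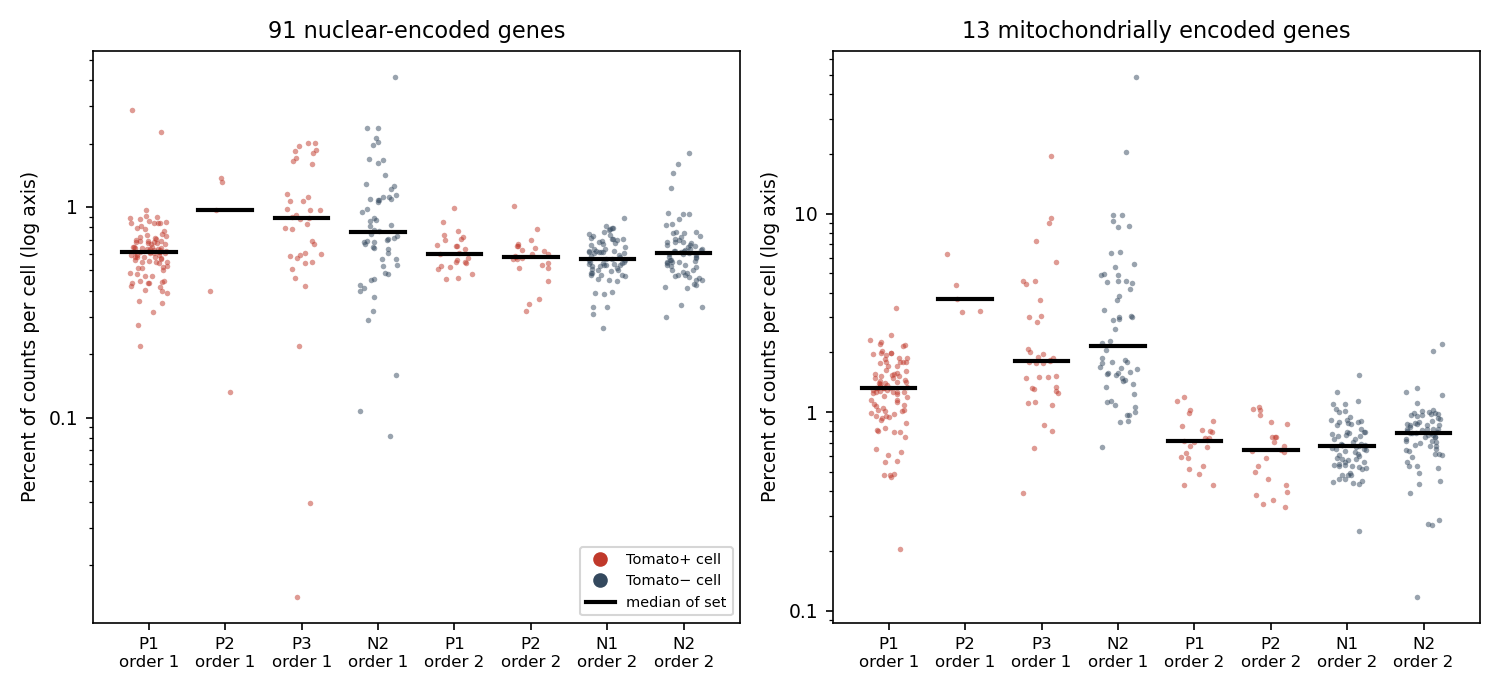
Each point is 1 of 386 cells, with the percent of its counts in the 91 nuclear-encoded genes (left) or the 13 mitochondrially encoded genes (right) on a log axis, by title set, and black lines are set medians. Nuclear-encoded medians run from 0.568 to 0.965%, and mitochondrially encoded medians are 1.32% or more in order 1 and at most 0.787% in order 2.

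The comparison of Tomato+ with Tomato- cells asks whether stromal cells traced to a fetal Kit-expressing source differ from other stromal cells of the same gate. No gene of the 77 at level was more than 1.5-fold higher in Tomato+ cells in both orders, and none was more than 1.5-fold lower, where 2.67% and 4.05% of all 6177 genes at level were. Summed over the 91 genes, order 1 had 6986 CPM in Tomato+ (95% exact Poisson interval 6970 to 7001, which covers counting error only) and 8462 CPM in Tomato- cells (8431 to 8494), a log2 ratio of -0.28. Order 2 had 6029 CPM (6002 to 6056) and 6275 CPM (6259 to 6291), a log2 ratio of -0.06. The median log2 ratio over the 87 genes with a count was -0.21 in order 1, -0.03 in order 2 and -0.17 for the mean of both, against 0.03, -0.06 and -0.01 over all 16143 genes with a count. The sums by set do not separate the groups: in order 1 the Tomato+ sets P1, P2 and P3 had 6293, 7437 and 9243 CPM around the 8462 CPM of N2, and in order 2 the Tomato+ sets had 6260 and 5855 CPM beside 5829 and 6631 CPM in the Tomato- sets.

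The summed ratio depended on which measure and which set was used. Without P1 of order 1 the mean log2 ratio of the sums was 0.02 in place of -0.17. Without the cells with Ptprc or Pecam1 counts it was -0.11; in Tomato- cells of order 2 those 21 cells gave 0.894% of their counts to the 91 genes against 0.572% in the other cells. When the median over cells took the place of the sum, a choice made after the data were seen, the ratio turned: the median gene of the 77 was 1.46 higher on the log2 scale in Tomato+ cells of order 1 and -0.01 in order 2, with 0 over all genes at level in each. Of the 77, 2 were then more than 1.5-fold higher in both orders, Ndufb6 and Ndufb11, where 2.22% of all genes were. None was lower, where 3.08% were. Ndufb6 was higher by sums too, with log2 ratios of 0.79 and 0.47. For Ndufb11 the sums of order 1 went the other way, with 209 CPM in Tomato- cells and 46.8 to 114.3 CPM in the Tomato+ sets. It was detected there in 78.3% of Tomato- and 70.1% of Tomato+ cells. A gene with counts in fewer than 50% of a group's cells has a median of 0 there, and all genes were detected in fewer cells than the 77. Values over all genes are therefore not a like background for this measure.

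Atp5b, the catalytic beta subunit, shows both measures. In order 1 its CPM per cell ran from 0 through a median of 381 to 3012 in Tomato+ and from 0 through 32.5 to 2006 in Tomato- cells; in order 2 it ran from 188.3 through 639 to 1309 and from 6.84 through 643 to 2678. The Tomato- cells of order 1 therefore had a low median, with an upper quartile of 333 CPM, and the 2 groups overlapped in each order. Summed, Atp5b stood at 468 and 292 CPM in order 1, but at 666 and 737 CPM in order 2.

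Of the 77 genes, 29 were below 0 on the log2 scale in both orders and 14 above 0 in both. Of all 6177 genes at level, 1643 were below 0 in both orders and 1639 above. The lowest mean ratios among genes of the same sign in both orders were those of the accessory complex I subunit Ndufa2 (-1.57 in order 1 and -0.10 in order 2), Ndufv3 of its flavoprotein arm (-1.24 and -0.31), Cox7b (-1.30 and -0.06), Ndufb7 (-0.26 and -0.96), Ndufb4 (-0.43 and -0.78) and Cox7c (-0.76 and -0.42). Ndufa2 had 103.3 CPM in Tomato+ and 308 CPM in Tomato- cells of order 1, where order 2 had 71.1 and 76.5 CPM, while its median per cell hardly moved, at 55.5, 56.5, 59.7 and 63.3 CPM. The highest were Ndufb5 (1.07 and 0.24), Ndufb6 (0.79 and 0.47), the small ATP synthase protein Atp5mpl (0.81 and 0.10), Ndufa11 (0.36 and 0.50), Uqcrc2 (0.77 and 0.08) and Cox7a2l (0.43 and 0.14). In each of these genes but Ndufb7, Ndufb4 and Ndufa11 the ratio was further from 0 in order 1. In order 1 alone, 6 of the 77 genes were more than 1.5-fold higher and 21 more than 1.5-fold lower (26% and 24.4% of all genes). In order 2 alone, 0 were higher and 4 lower, where 8.73% and 12.9% of all genes were.

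**Figure D3:**
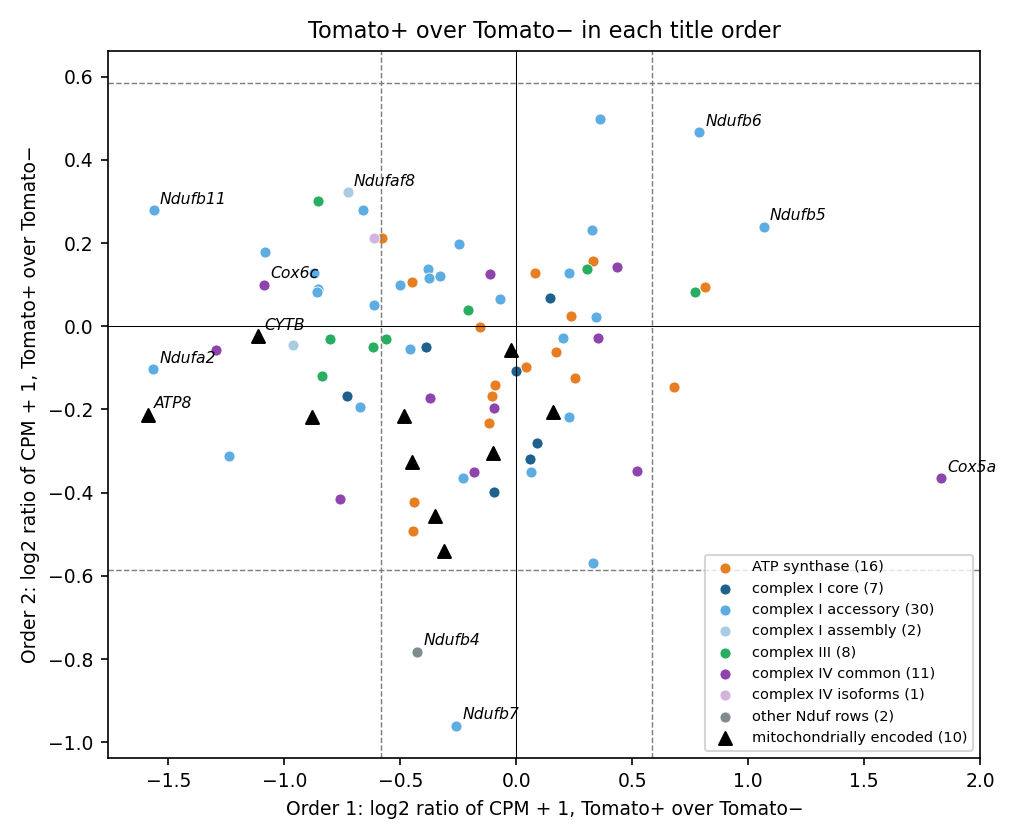
Each point is a gene at level, with its log2 ratio of Tomato+ over Tomato- CPM + 1 in order 1 (horizontal) and in order 2 (vertical), coloured by its group, and dashed lines mark 1.5-fold. No gene lies beyond the dashed lines in the same direction on both axes, and the horizontal spread is the wider.

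By complex, the median log2 ratio of Tomato+ over Tomato- cells, as the mean of both orders, was -0.05 for ATP synthase, -0.13 for the complex I core, -0.17 for its accessory subunits, -0.29 for complex III and -0.15 for the common complex IV subunits. It was -0.39 for the mitochondrially encoded genes, of which 9 of the 10 at level were below 0 in both orders and 0 passed 1.5-fold in both. Of all 6177 genes at level, 1643 were below 0 in both orders. The sum of the mitochondrially encoded genes was 15458 CPM in Tomato+ and 24323 CPM in Tomato- cells of order 1. In order 2 it was 6838 and 7600 CPM, and the log2 ratios were -0.65 and -0.15. Without P1 of order 1 the mean of these ratios was -0.12 in place of -0.40.

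Column names of order 1 carry codes such as D74, called library codes here, though no source used here says what they mark. Of these, 7 codes hold cells of both groups, with 83 Tomato+ and 60 Tomato- cells. Within each of the 7 codes the summed level of the 91 genes was lower in Tomato+ cells, with log2 ratios of -0.92 to -0.26, and so was that of the mitochondrially encoded genes, with -1.89 to -0.42. Over the 7 codes together the ratios were -0.45 and -0.85, and 5 of the 77 genes were more than 1.5-fold higher and 34 more than 1.5-fold lower (25.4% and 28.7% of all genes). ATP synthase did not share this: its sum was higher in Tomato+ cells in 4 of the 7 codes. The codes' cells are all from the sets P1 and N2, so a code holds 1 set per group. In order 2 the sets numbered 1 gave log2 ratios of 0.10 for the 91 genes and 0.05 for the mitochondrially encoded genes, and the sets numbered 2 gave -0.18 and -0.30. Whether sets of 1 number share more than it was not tested.

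**Figure D4:**
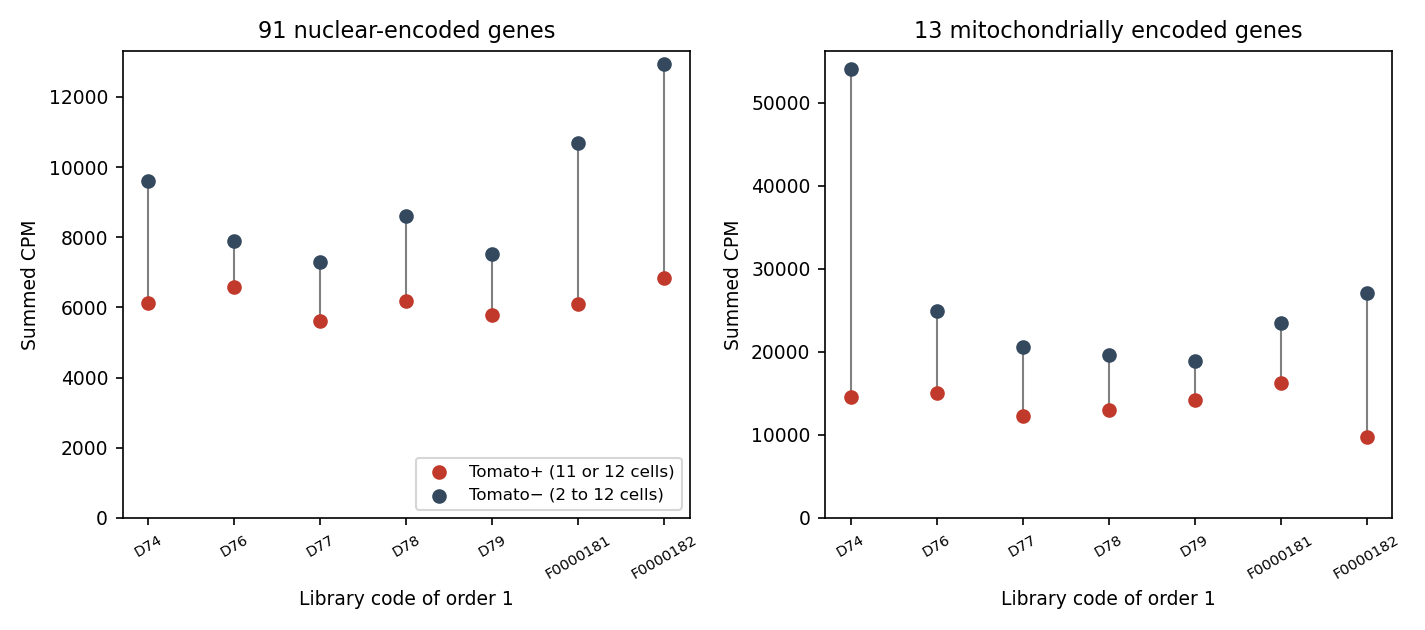
Summed CPM of the 91 nuclear-encoded (left) and the 13 mitochondrially encoded genes (right) in Tomato+ (red) and Tomato- cells (blue) of each library code of order 1 that holds both groups, with a line joining the pair. The Tomato- value is the higher in 7 of 7 codes in both panels, with as few as 2 Tomato- cells in the last code.

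The 2 orders differed more than the Tomato groups. By sums, 23 of the 77 genes were more than 1.5-fold lower in order 2 in both Tomato groups and 3 were higher, where 15% and 10.9% of all genes were. The 23 hold 12 accessory and 2 core subunits of complex I, with both further rows named after Ndufb4, the assembly factor Ndufaf8, 3 subunits of complex III (Uqcr10, Uqcr11 and the core protein Uqcrc1), Cox7c, and Atp5g1 and Atp5o of ATP synthase. The 3 that were higher were Atp5d, the delta subunit of the central stalk of ATP synthase, Atp5g2 and Cox8a. The median log2 ratio of order 2 over order 1, over the 87 genes with a count, was -0.34 in Tomato+ and -0.45 in Tomato- cells, against -0.03 and 0.12 over all genes. Taken alone, Tomato+ cells had 5 genes higher and 29 lower in order 2 (19.3% and 27% of all genes), and Tomato- cells had 7 higher and 36 lower (28.2% and 32.1%).

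By sums, the complexes differed in this comparison. As the mean of both Tomato groups, the median log2 ratio was -0.76 for accessory complex I subunits, with 12 of 30 lower and 0 higher, and -0.72 for its core, with 2 of 7 lower. It was -0.46 for complex III, with 3 of 8 lower, and -0.12 for common complex IV subunits, with 1 of 11 lower and 1 higher. For ATP synthase it was 0.06, with 2 of 16 lower and 2 higher. Of all genes at level, 15% were lower and 10.9% higher. The counts for ATP synthase and common complex IV subunits lie near these shares. The sign for ATP synthase was not stable, at -0.11 without P1 of order 1, -0.01 without N2 of order 2 and -0.02 without P1 of order 2. The ranking was another by the median over cells, with 2.74 for the complex I core and 1.35 for its accessory subunits. By that measure ATP synthase had 2.28, the common complex IV subunits 1.90 and complex III 1.76. In summed CPM, accessory complex I subunits had 2169 (Tomato+) and 2984 (Tomato-) in order 1 against 1489 and 1459 in order 2, while ATP synthase had 2016 and 1938 against 2357 and 2490. ATP synthase held 28.9% and 22.9% of the counts of the 91 genes in order 1 and 39.1% and 39.7% in order 2.

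Ndufaf8, Ndufb8 and Uqcr10 had the lowest ratios in Tomato- cells among the genes called lower. Ndufb8, an accessory subunit of the membrane arm, fell from 157.9 to 62.5 CPM in Tomato+ and from 287 to 58.95 CPM in Tomato- cells (log2 ratios of -1.32 and -2.27). Uqcr10, a small subunit of complex III, stood at 98.1 and 178.3 CPM and then, in order 2, at 46.7 and 37.8 CPM. Ndufaf8 stood at 39.8 and 66.6 CPM and then at 12.4 and 9.67 CPM, with 55.3% of its counts in Tomato- cells of order 1 from 1 cell. The 3 that were higher had log2 ratios of 0.89 and 1.07 (Atp5d), 1.05 and 1.43 (Atp5g2) and 0.62 and 1.002 (Cox8a) for Tomato+ and then Tomato- cells. Cox8a, a small subunit of complex IV, rose from 110 to 170 CPM in Tomato+ and from 86.3 to 173.7 CPM in Tomato- cells.

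By the median over cells, added after the data were seen, the same comparison came out differently. Of the 77, 38 were then more than 1.5-fold higher in order 2 in both groups and 0 lower, where 34.9% and 3.72% of all genes were. The median log2 ratio of the 77 was 1.79 by this measure, against 0.60 over all genes at level. All genes at level were detected in a median of 50.4% (Tomato+) and 50% (Tomato-) of cells in order 1, then 56.25% and 58.2% in order 2. The 77 were detected in 74.5% and 66.7%, then 77.1% and 78.7%. With a median of 0 below 50% of cells, the values over all genes are not a like background here. The 38 higher genes hold 9 of 16 ATP synthase genes, 5 of 7 core and 12 of 30 accessory complex I subunits, 5 of 8 complex III subunits and 7 of 11 common complex IV subunits. Of the 23 genes lower by sums, 1 had a lower median in order 2 in both groups, Uqcr11. A higher median in both was found for 11, and 11 were mixed or unmoved. Of all 928 genes lower by sums, 245 had a lower median in both groups, 95 a higher one and 588 were mixed or unmoved. These 928 were detected in a median of 57.7% (Tomato+) and 58.3% (Tomato-) of cells in order 1, then 41.7% and 46.1% in order 2. The 23 were detected in 76.6% and 66.7%, then in 70.8% or more. The 928 are therefore not a like background either. Of the 23, 4 (Ndufab1, Ndufs7, Ndufv2 and Uqcrc1) were more than 1.5-fold higher by medians in both groups. The 3 genes higher by sums were higher by medians too.

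Uqcrc1 shows how the measures part. Its CPM per cell in order 1 had a lowest value of 0, a median of 19.5 and a highest value of 1515 in Tomato+ cells, and 0, 8.86 and 9687 in Tomato- cells. In order 2 it had 0, 79.7 and 395, and 0, 70.1 and 475. The typical cell was thus higher in order 2 and the highest cells were in order 1, while the sums fell from 189.3 to 97.5 CPM and from 291 to 100.99 CPM. Ndufs7, a core subunit with an iron-sulphur cluster, had medians of 5.02 and 6.44 CPM in order 1, then of 32.5 and 50.5 CPM in order 2, beside sums of 115.9 and 111.04 and then 45.2 and 56.6 CPM. Cox8a, by contrast, rose in both, with medians of 65.7 and 8.36 CPM in order 1, then 155.1 and 150 CPM in order 2.

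**Figure D5:**
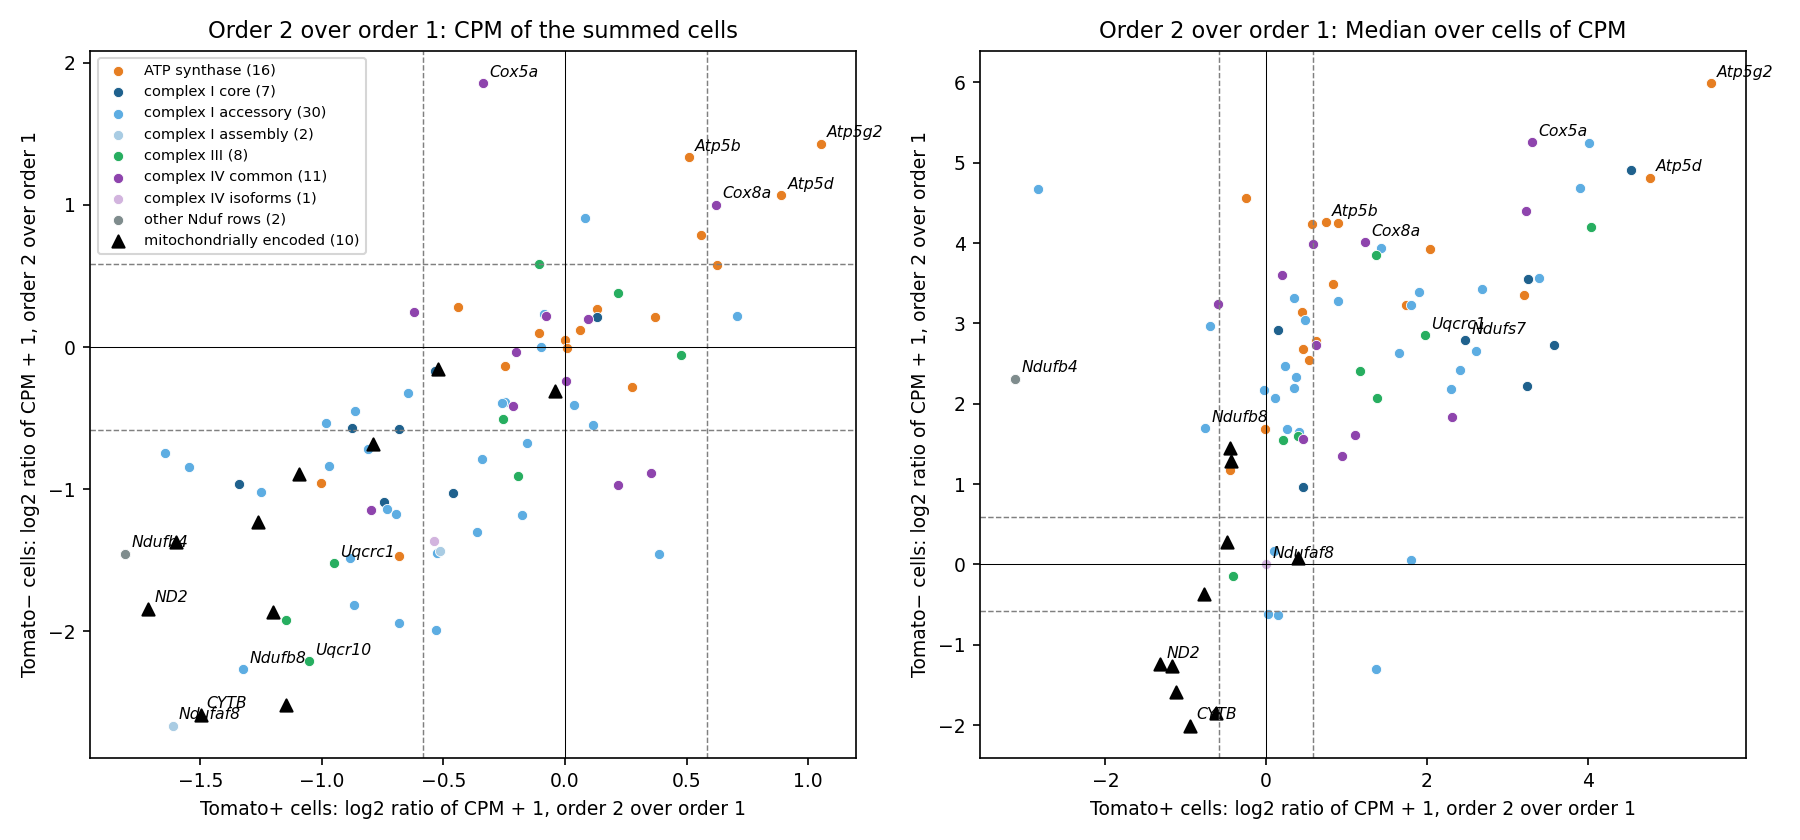
Each point is a gene at level, with its log2 ratio of order 2 over order 1 in Tomato+ (horizontal) and Tomato- cells (vertical), from the CPM of the summed cells (left) and from the median over cells of CPM (right), and dashed lines mark 1.5-fold. The 23 genes lower by sums lie at the lower left of the left panel and 38 genes lie past 1.5-fold above on the right, while 8 of the 10 mitochondrially encoded genes lie past 1.5-fold below in both groups on the left and 5 on the right.

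Uneven counts between cells of order 1 accompany this difference. The cell with the most counts of a gene held a median of 9.75% and 20.96% of that gene's counts in Tomato+ and then Tomato- cells of order 1 over the 77 genes, and 9.01% and 3.97% in order 2, where the groups differ in their number of cells. For the 39 genes of middle level, 53.6 to 102.8 CPM, the median coefficient of variation over cells was 2.31 and 2.97 in order 1, against 1.07 and 1.11 in order 2. All 1531 genes of the same level in the whole table had 2.39 and 3.20, and then 1.49 and 1.52. Thinned to 150000 counts per cell, a median of 51 and 40 of the 91 genes were detected in Tomato+ and then Tomato- cells of order 1 and 55 and 57 in order 2, with 61, 51, 60 and 62 before thinning. All genes were detected less often in order 1 as well, with 3030 and 2706 genes per thinned cell against 3613.5 and 3781. Thinning left out 4, 7, 0 and 6 shallower cells.

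Most mitochondrially encoded genes at level were lower in order 2 by sums. Medians over cells were lower in both groups for 6 of 10, and for 382 of all 6177 genes at level. By sums 8 of the 10 at level were more than 1.5-fold lower in both groups and 0 higher, where 15% and 10.9% of all genes were. The median log2 ratio over the 13 was -1.24. By medians over cells 5 were more than 1.5-fold lower and 0 higher, where 3.72% and 34.9% of all genes were. As above, all genes are not a like background for medians. CYTB, the complex III subunit encoded by mitochondrial DNA, stood at 5358 and 11577 CPM in order 1, then 1896 and 1927 CPM in order 2, with medians per cell of 3568 and 7713 and then 1852 and 1917 CPM. COX1, the catalytic subunit of complex IV, stood at 4088 and 4154 CPM and then at 1704 and 1774 CPM, and ATP6 at 2285 and 4205 and then at 994 and 1157 CPM. The complex I subunits ND2 and ND4 were lower too, ND2 with 320 and 437 CPM against 96.8 and 121.5 CPM, and ND4 with 1026 and 1101 CPM against 480 and 593 CPM. ND5, ND6 and ATP8 were called lower as well. The medians over cells of ND5 and ND6 were higher in order 2 in Tomato- cells, though, at 105.5 against 259.7 CPM and 2.65 against 8.97 CPM, and 33.1% of the ND6 counts in Tomato- cells of order 1 came from 1 cell. ND1 (959, 860, 668 and 772 CPM) and COX2 (640, 896, 622 and 723 CPM) moved less than 1.5-fold.

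COX3, ND3 and ND4L did not pass the level and share of cells asked of a gene, with counts in 14.5%, 21.2% and 6.22% of cells. Over the whole table, values above 0 were not whole in 98.99% of cells for COX3, 98.5% for COX1, 87.5% for ND4L, 83.8% for ATP6 and 75.6% for ND3, which is how expected counts show reads divided between features, and their levels are uncertain. For COX2 the share was 82.2% in order 1 and 24.3% in order 2, and for ATP6 97.3% and 69.5%, so the division itself differed between the orders. For CYTB, ND1 and ND2 it was 0%.

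Divided reads limit several nuclear-encoded genes. Values above 0 were not whole in 54.4% of cells for Atp5l, 29.1% for Ndufa12 and 23.2% for Ndufb6, beside the subunit c genes given above, so their levels are uncertain too. The rows Ndufb4, Ndufb4b and Ndufb4c held the same value in each of the 269 cells with a count (44.6% of them not whole), so they are 1 measurement, and the 23 rows lower in order 2 are 21 without the copies. Its summed level was 75.96 and 102.4 CPM in order 1, then 20.97 and 36.8 CPM in order 2, with medians over cells of 25.8, 3.62, 2.08 and 21.9 CPM, which differ in sign between the Tomato groups.

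By summed counts, the 5 cells of P2 of order 1 stood apart from the other Tomato+ sets. They had 1188 CPM of Ndufb10, 862 CPM of Ndufb6 and 684 CPM of Ndufb4, against 43.3 to 174.85 CPM, 36.9 to 66.2 CPM and 18.5 to 123.4 CPM in the other 7 sets. Subunits of the complex I core summed to 41.3 CPM there and to 400 to 732 CPM elsewhere, and CYTB stood at 28820 CPM. Without this set, members lower in Tomato+ cells in both orders number 3, the Ndufb4 rows, in place of 0 (4.15% of all genes). The count lower in order 2 stays at 23 (15.1% of all genes).

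Around the chain, other mitochondrial genes differed in both directions, and their counts are to be read against the 10.9% of all genes higher and 15% lower in order 2. Of complex II, which feeds electrons from succinate, Sdhc was lower in order 2 (86.98 and 150 CPM, then 57.3 and 73.1), the only call among 5 genes at level, while Sdha stood at 216, 190.9, 191.7 and 207 CPM, Sdhb at 98.5, 139.4, 70.8 and 71.3 and Sdhd at 75.1, 106.6, 65.6 and 63.4. Cycs, cytochrome c, stood at 127.2, 94.9, 63.4 and 96.5 CPM, and Cyc1, the cytochrome of complex III, at 52.7, 34.5, 68.9 and 64.7, neither past the rule. Of 8 assembly and copper delivery genes of complex IV at level, 4 were lower in order 2, among them Cox14 (59.1, 147.1, 31.1 and 40.4 CPM) and Coa3 (65.3, 103.6, 21.6 and 28.3 CPM). Tmem126b, which takes part in complex I assembly, was lower in Tomato+ cells in both orders (20.2 and 58.5, then 9.78 and 21.4 CPM). It was the only such call among 4 genes of its list at level, where 4.05% of all genes were lower in Tomato+ cells.

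Among 10 regulators of mitochondrial gene expression at level, Tfam was lower in Tomato+ cells in both orders. Tfam, which packages mitochondrial DNA and starts its transcription, stood at 26.5 and 41.4 CPM in order 1, then 20.2 and 36.9 CPM in order 2. It was the only such call among the 10, where 4.05% of all genes were lower in Tomato+ cells. Gabpa, an ETS factor, and Polg, the mitochondrial DNA polymerase, were among 3 genes that were higher in order 2, at 23.9 and 23.4 and then 73.1 and 61.8 CPM for Gabpa, and Ssbp1 and Slirp were lower. Nrf1 stood at 43.02, 44.5, 43.01 and 31.05 CPM. Ppargc1a and Esrra were near 0, at no more than 2.96 and 5.15 CPM in any group and with counts in 2.07% and 4.66% of cells. Of 17 genes of the tricarboxylic acid cycle, 1 was higher in order 2 (Cs, at 72.2 and 59.8, then 132.98 and 113.7 CPM) and 2 lower (Sucla2 and Pdhb), both below the shares of all genes. Of 15 glycolysis genes at level, 4 were higher in order 2 (10.9% of all genes), among them Tpi1 (138.1, 102.6, 217 and 243 CPM) and Pgam1 (88.7, 83.03, 164.3 and 202 CPM), and Ldhb was lower. Pfkp, a phosphofructokinase, was higher in Tomato+ cells in both orders, at 81.2 and 41.2 and then 76.8 and 48.6 CPM. It was the only such call among the 15, where 2.67% of all genes were higher in Tomato+ cells.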

How the data were processed

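RNA of 388 single marrow stromal cells was measured, 1 cell per sample and 25000 genes. The table deposited by the authors holds expected counts, estimates of reads per gene; per the file headers the columns of order 1 end in the name of an RSEM gene result, while those of order 2 name no tool. The submitters' processing notes name GRCm38, HISAT, HTSeq 0.6.0 and StringTie 1.3.3b with no role or order, and per the labels' protocols the cells were lysed, reverse transcribed and amplified over whole transcripts. No source used here mentions molecular identifiers, so counts are reads, and intervals cover counting error only. Values above 0 that were not whole made up 3.97% in order 1 and 5.77% in order 2, and all values were rounded.

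Samples were placed in groups by their labels and in sets and orders by their titles, and columns were matched by set name and by the style of the column name, with the same number of cells in each set as in the titles. All columns were used, and 0 pairs of columns were duplicates. A cell was kept from 1000 genes and 10000 counts upward (386; both cells left out were Tomato+, of P3 of order 1). No doublet caller was run. Counts were summed per group and order and scaled to counts per 1000000 counts (CPM), and log2 ratios used CPM + 1. A gene was called where it passed 20 CPM over the 4 sums and a count in 20% of cells, moved more than 1.5-fold in both orders (or both groups), and kept its sign in the averages of CPM over cells. Exon lengths and gene positions came from GENCODE M21 on GRCm38 (89 of 91 genes matched), and promoters from RefSeq on GRCm38.p6. Named genes are those called, the 2 highest and the lowest per length in each group, the 6 highest and 6 lowest Tomato ratios of the same sign, the isoform sets, all mitochondrially encoded genes and set members of each pathway list; any further gene named was picked with its values known. One result under this rule is not reported here. The genes and lists were chosen with earlier results of these data known. Alternatives covered scaling, pseudocount, cell and level filters, cells with blood or vessel counts, shared codes or set numbers, each gene's top cell and each set left out. The scripts were tested on simulated data, and used Python 3.11.15, numpy 2.4.6, pandas 2.3.3, scipy 1.17.1 and matplotlib 3.10.9.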

Additional observations from a re-analysis of the deposited data

How the results depend on the processing

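No gene changed direction among the 26 called between orders in 17 settings chosen at the start, and 10 kept their call in all of them (8 of 24 with the Ndufb4 copies counted once). In some of these settings no change of direction was possible. With the mean over cells, a call asks for the same sign there. Another pseudocount cannot turn the sign of a ratio. Without N2 of order 1 the unchanged Tomato+ ratio stands alone, which a call already asks to be past 1.5-fold. These settings say nothing on whether a direction is stable. The median over cells, added after the data were seen, gave 2 genes higher in Tomato+ cells in place of 0, 38 higher in order 2 in place of 3 and 0 lower in place of 23, and medians of 0.39 (Tomato) and 1.57 (order) in place of -0.17 and -0.41; 16 of the 23 then had mean log2 ratios above 0, the cause of which was not tested: Atp5g1 0.36, Atp5o 1.57, Cox7c 1.01, Ndufa1 1.35, Ndufa5 1.09, Ndufa8 0.93, Ndufab1 2.14, Ndufb10 1.07, Ndufb2 1.13, Ndufb7 0.92, Ndufb8 0.47, Ndufs5 1.28, Ndufs7 2.63, Ndufv2 2.74, Uqcr10 0.88, Uqcrc1 2.41. With all cells summed over both orders, 4 genes were higher and 2 lower in Tomato+ cells (12.4% and 14.4% of all genes), the median was 0.062 and the summed ratios were -0.015 (nuclear-encoded) and 0.18 (mitochondrially encoded, in place of -0.40). The count lower in Tomato+ cells was 3 with the mean over cells, 3 with median-of-ratios scaling and 1 with no level filter. Of all genes, 3.27%, 3.91% and 5.17% were lower in these settings. The count higher in order 2 was 5 with median-of-ratios scaling (11.9% of all genes) and 5 without each gene's top cell (15.2%). The count lower in order 2 was 17 without each top cell (10.8% of all genes). At a level of 100 CPM 1 gene was higher in order 2 and 3 lower, where 12.8% and 14.8% of all genes were. Leaving out 1 set gave 0 to 1 genes higher in Tomato+ cells (1 without P2 of order 2). It gave 0 to 4 lower (4 without N2 or P3 of order 1), and 3 to 5 higher and 20 to 29 lower in order 2. With sets other than N2 of order 1 left out, 2.43 to 4.1% of all genes were higher in Tomato+ cells and 3.61 to 5.71% lower. Between orders these shares were 10.4 to 15% higher and 12.7 to 16.7% lower. Over all left-out sets the medians were -0.23 to -0.031 (Tomato) and -0.54 to -0.34 (order). The summed ratios were -0.24 to 0.024 (nuclear-encoded, 0.024 without P1 of order 1) and -0.48 to -0.12 (mitochondrially encoded). Order 1 has no other Tomato- set than N2, and without it 1 order or 1 group is compared alone, which gives the 5, the 29, the -0.031 and the -0.34; with the other sets left out in turn the limits are 4, 27, -0.038 and -0.36. The Tomato median was -0.10 with the mean over cells, -0.14 with a pseudocount of 5, -0.18 scaled without mitochondrially encoded and ribosomal protein genes, -0.22 with median-of-ratios scaling, -0.11 without cells with Ptprc or Pecam1 counts, -0.11 without each top cell and -0.16 at 20 CPM or more. In the same order the order median was -0.52, -0.37, -0.43, -0.40, -0.48, -0.15 and -0.45, and -0.42 with a pseudocount of 0.1; without each top cell the median of all genes at level moved from -0.08 to 0.17. The summed nuclear-encoded ratio was -0.19 (mean over cells), -0.17 (scaled without those genes), -0.22 (median-of-ratios), -0.11 (without blood or vessel counts), -0.074 (without top cells) and -0.18 (within shared codes or set numbers). The summed mitochondrially encoded ratio was -0.63, -0.41, -0.46, -0.39, -0.39 and -0.37 in that order, and -0.38 at 100000 counts or more per cell. The median share of cells with a count, 70.98%, was 62.6% when thinned to 150000 counts and 54.9% at 5 counts. No paired analysis was possible because neither set numbers nor library codes are known to mark a shared animal or day and each group is 1 sample; the values within library codes are a description. Depth limits genes of low level, and animal, batch and order cannot be told apart.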
